A study of Mus musculus with 8 samples.

Results

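Cd163 and 9 genes that mark the resident macrophages of the liver, Marco, Timd4, Clec4f, Vsig4, Cd5l, Folr2, Mrc1, Adgre1 and Csf1r, were followed in the livers of mice with diet-induced metabolic dysfunction-associated steatohepatitis (MASH). These 10 genes, of 52636 listed in each deposited table, were found by matching their Ensembl identifiers to the mouse annotation of genome build GRCm38. They were chosen by their counts in these livers, with the fold changes between the groups already known, so the differences of these genes are given as a description and without a p-value. Male wild-type C57BL/6J mice were injected at 7 weeks of age with AAV8-GFP or AAV8-AGXT, adeno-associated viruses that carry green fluorescent protein or human alanine-glyoxylate aminotransferase (AGXT) behind the hepatocyte-specific TBG promoter. From 8 weeks of age both groups were fed a MASH-inducing diet rich in fat, fructose and cholesterol for 24 weeks, and there was no group on chow. Whole-liver mRNA of 4 AAV8-GFP mice (animals 303, 311, 314 and 315) and 4 AAV8-AGXT mice (animals 308, 309, 316 and 319) was sequenced, 1 library per mouse.

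Kupffer cells are the resident macrophages of the liver, and they line the sinusoids, where they take up microbes, ageing red cells, cell debris and modified lipoproteins from portal blood. Under healthy conditions they are seeded before birth and renew themselves. In steatohepatitis part of this pool is lost and is replaced by macrophages that derive from blood monocytes, which acquire markers such as Clec4f before others such as Timd4. Cd163 is a receptor for haemoglobin, and glucocorticoids and interleukin-10 induce it in macrophages.

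Each library held 17095433 to 28780140 read pairs on genes, and 15248 genes passed the filter on low counts. Levels are normalized counts-per-million (CPM), that is, counts relative to the library size after trimmed-mean (TMM) scaling. All 10 genes passed the filter and had a count in every mouse, the lowest being 10. Log2 fold changes and their standard errors (SE) are those of edgeR for AAV8-AGXT over AAV8-GFP. The transgene is human, so the mouse Agxt row is no direct check of the labels, and it held 148.3 to 179.9 CPM in AAV8-GFP mice and 201.5 to 405.3 CPM in AAV8-AGXT mice (log2 fold change 0.90, SE 0.22, edgeR quasi-likelihood test, adjusted p = 0.0489). AAV8-AGXT mouse 308 stood apart with the smallest share of its read pairs on genes, 56.3%, against 62.4% or more in the other mice. Nothing in the labels gives a batch, and the p-values weigh the difference between the groups against the spread between these mice.

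The stretches of genome just before Cd163, Marco and Timd4 are shown because these 3 genes had the largest differences among the 10. Each line holds the 250 bases before the RefSeq transcription start, read in the direction of the gene, on build GRCm38.p6. Capitals mark GAGGAA, the core of sites bound by the macrophage factor PU.1, and TGCTGA, the core of sites bound by MAF proteins, searched on both strands, where the complements read TTCCTC and TCAGCA. The windows are chr6:124304401-124304650 on the plus strand for Cd163, chr1:120505025-120505274 on the minus strand for Marco and chr11:46810549-46810798 on the plus strand for Timd4.
Cd163: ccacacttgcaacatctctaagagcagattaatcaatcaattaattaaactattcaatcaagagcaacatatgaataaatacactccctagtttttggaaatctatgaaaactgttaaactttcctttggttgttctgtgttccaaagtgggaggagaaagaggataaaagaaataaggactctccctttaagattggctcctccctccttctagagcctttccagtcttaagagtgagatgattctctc
Marco: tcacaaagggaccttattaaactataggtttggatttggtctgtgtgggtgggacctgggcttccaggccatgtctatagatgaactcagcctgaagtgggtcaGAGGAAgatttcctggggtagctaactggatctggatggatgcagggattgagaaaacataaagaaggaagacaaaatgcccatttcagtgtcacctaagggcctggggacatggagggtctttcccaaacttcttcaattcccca
Timd4: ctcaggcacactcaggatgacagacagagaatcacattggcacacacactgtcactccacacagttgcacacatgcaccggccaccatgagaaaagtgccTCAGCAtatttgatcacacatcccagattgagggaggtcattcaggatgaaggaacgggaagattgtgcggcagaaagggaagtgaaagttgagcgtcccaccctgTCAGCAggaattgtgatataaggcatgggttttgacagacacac
The Cd163 window held neither core, the Marco window held 1 GAGGAA and the Timd4 window held 2 matches to the TGCTGA core. RefSeq windows were matched for 8 of the 10 genes, in 9 windows, and Adgre1 and Csf1r were not matched. GAGGAA stood in 4 of these 9 windows, among them the windows of Vsig4 and Mrc1, and in 23.3% of all 32851 windows of this length. TGCTGA stood in 5 of the 9, among them those of Clec4f, Cd5l and Folr2, and in 16.1% of all windows. These matches describe letters and are not measured binding.

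Cd163 was low in every AAV8-GFP liver and higher in every AAV8-AGXT liver. The gene (ENSMUSG00000008845) lies on the plus strand of chromosome 6 from 124304656 to 124330527. Its counts were 37, 29, 14 and 32 in AAV8-GFP mice 303, 311, 314 and 315 and 164, 247, 89 and 720 in AAV8-AGXT mice 308, 309, 316 and 319. In CPM these were 1.44, 0.888, 0.646 and 1.41 against 11.3, 14.8, 4.57 and 34.0. The groups did not overlap, and the lowest AAV8-AGXT mouse, 316, lay above the highest AAV8-GFP mouse, 303. The means were 1.10 ± 0.395 CPM and 16.2 ± 12.6 CPM (SD, n = 4 each), a 14.7-fold ratio of means, with a log2 fold change of 3.88 (SE 0.58), the 4th largest of all 15248 genes tested. The AAV8-AGXT mice were themselves spread over 7.43-fold, whereas the AAV8-GFP mice were spread over 2.24-fold. Without mouse 319, the highest, the log2 fold change was 3.22, and over the 8 fits that each left out 1 mouse it lay between 3.22 and 4.20.

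At an adjusted p under 0.05 in edgeR's quasi-likelihood test, 1 of the 10 genes was called, which was Cd163, where 4.35% of all genes tested were called. By no overlap between the groups, 2 of the 10 stood apart, Cd163 and Marco, where 16.6% of all genes tested did. Since the genes were picked with this comparison known, nothing is read from either count. Cd163 was not called when AAV8-GFP mouse 311 or AAV8-GFP mouse 314 was left out, fits in which 2 and 15 genes in all were called, and its log2 fold change without mouse 311 was 3.76. Of the 10 genes, 8 had a log2 fold change above 0 and 2 below, with a median of 0.27, against 0.018 over all genes tested. Without Cd163, Marco and Timd4 the median of the remaining 7 was 0.13.

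**Figure D1:**
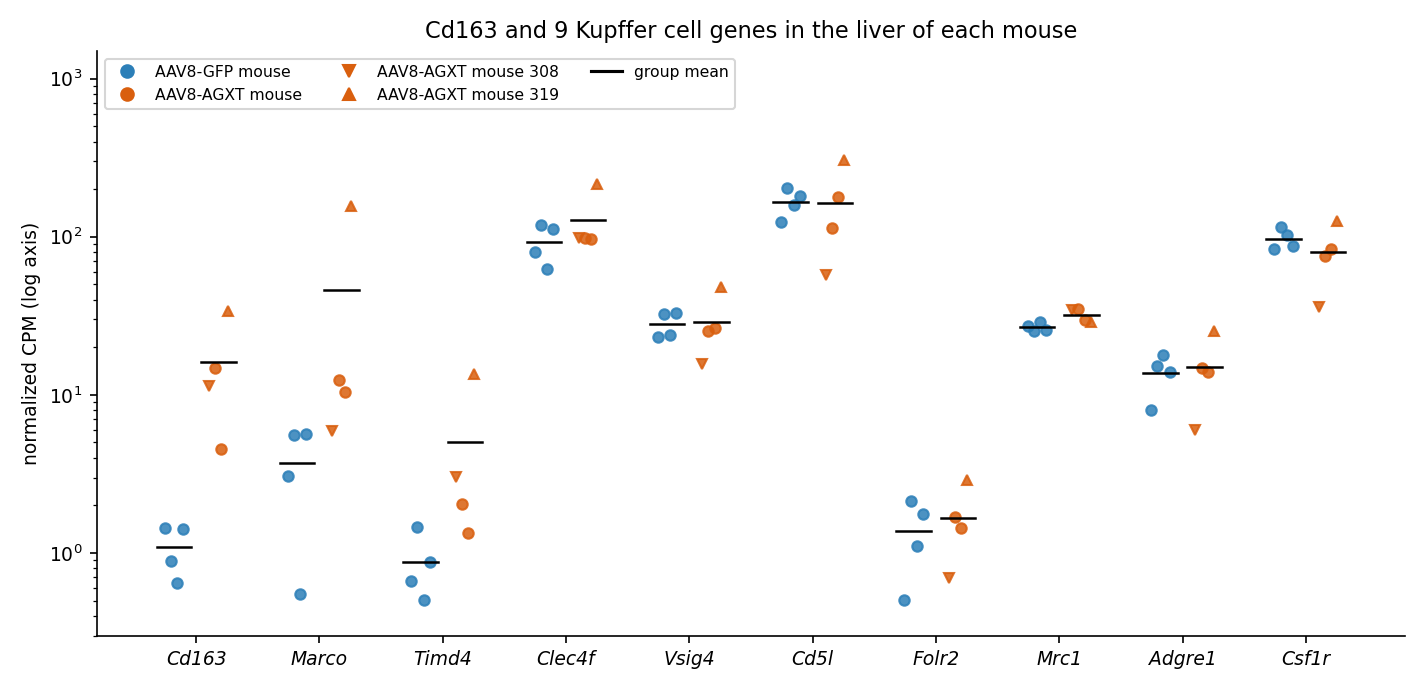
Normalized CPM of Cd163 and 9 Kupffer cell genes in each mouse, on a log axis, with AAV8-GFP mice in blue, AAV8-AGXT mice in orange and the group mean as a black line. Cd163 lies between 0.646 and 1.44 CPM in AAV8-GFP mice and between 4.57 and 34.0 CPM in AAV8-AGXT mice, and mouse 319 (upward triangle) is the highest of all 8 mice for 9 of the 10 genes.

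Marco, a class A scavenger receptor for bacteria and particles, lies on the minus strand of chromosome 1 (120474538 to 120505024). It measured 3.05, 5.60, 0.554 and 5.65 CPM in AAV8-GFP mice 303, 311, 314 and 315. In AAV8-AGXT mice 308, 309, 316 and 319 it measured 5.94, 12.4, 10.4 and 156.2 CPM. The groups did not overlap, but mouse 308 lay just above AAV8-GFP mouse 315, and with total counts and no composition factor, or without the filter on low counts, the groups overlapped. The level in mouse 319 was 12.6 times that in the next mouse. The log2 fold change was 3.63 (SE 1.09) with this mouse and 1.36 without it.

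Timd4, a receptor for phosphatidylserine on dying cells that marks long-lived Kupffer cells, lies on the plus strand of chromosome 11 (46810800 to 46844332). Its levels were 0.664, 1.47, 0.507 and 0.882 CPM in AAV8-GFP mice 303, 311, 314 and 315, from 11 to 48 counts. They were 3.04, 2.04, 1.34 and 13.6 CPM in AAV8-AGXT mice 308, 309, 316 and 319. The groups overlapped, because mouse 316 lay below AAV8-GFP mouse 311. Mouse 319 was again the highest, at 4.47 times the next mouse, and the log2 fold change of 2.49 (SE 0.72) was 1.25 without it.

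Clec4f, a C-type lectin that in mice is largely restricted to Kupffer cells, gave nearly equal levels in 3 of the AAV8-AGXT mice. It measured 79.5, 118.3, 62.3 and 111.9 CPM in AAV8-GFP mice 303, 311, 314 and 315 and 98.0, 97.6, 97.1 and 214.8 CPM in AAV8-AGXT mice 308, 309, 316 and 319. The first 3 of these AAV8-AGXT values lie inside the AAV8-GFP range, and mouse 319 lies above it. The log2 fold change was 0.45 (SE 0.30), and 0.07 without mouse 319. The gene lies on chromosome 6 from 83644542 to 83656187.

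Vsig4 encodes the complement receptor of the immunoglobulin family with which Kupffer cells clear opsonized particles. Its values were 23.4, 32.6, 23.9 and 33.0 CPM in the AAV8-GFP mice and 15.7, 25.4, 26.3 and 48.3 CPM in the AAV8-AGXT mice, in the same order of animals, with a log2 fold change of 0.04 (SE 0.29). Cd5l, a secreted protein of tissue macrophages that binds lipids and inhibits apoptosis, measured 123.7, 203.9, 158.5 and 181.8 CPM against 57.2, 114.2, 179.2 and 306.9 CPM, a log2 fold change of -0.02 (SE 0.41). For both genes mouse 308 was the lowest and mouse 319 the highest of all 8 mice, so the AAV8-AGXT values surrounded those of the AAV8-GFP group. Within the AAV8-AGXT group Cd5l was spread over 5.36-fold, against 1.65-fold within the AAV8-GFP group.

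Folr2, the folate receptor of tissue macrophages, had from 10 to 70 counts per mouse, or 0.508, 2.14, 1.11 and 1.76 CPM in AAV8-GFP mice and 0.690, 1.68, 1.44 and 2.88 CPM in AAV8-AGXT mice. Folr2 had a log2 fold change of 0.29 (SE 0.49), and 975 of its 1546 exonic bases overlap Gm10602 on the other strand, so its counts are uncertain. Mrc1, the mannose receptor, is also expressed by sinusoidal endothelium and had the narrowest spread of the 10. It measured 27.1, 25.5, 28.9 and 25.8 CPM in AAV8-GFP mice and 34.2, 35.1, 29.8 and 28.7 CPM in AAV8-AGXT mice. This gave a log2 fold change of 0.25 (SE 0.10) that lay between 0.19 and 0.31 with each mouse left out. Unlike the other 9 genes, Mrc1 was not highest in mouse 319, which held the lowest value of the AAV8-AGXT group, and mouse 309 held the highest.

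Adgre1 encodes F4/80, the surface protein by which mouse macrophages are usually sorted, and Csf1r encodes the receptor for the macrophage growth factors CSF1 and IL-34. Adgre1 measured 8.04, 15.2, 17.9 and 14.03 CPM in AAV8-GFP mice and 6.01, 14.7, 13.9 and 25.4 CPM in AAV8-AGXT mice, with a log2 fold change of 0.13 (SE 0.37). Csf1r measured 84.1, 114.6, 101.9 and 87.9 CPM against 35.8, 75.8, 83.4 and 126.3 CPM, with a log2 fold change of -0.27 (SE 0.30). Mouse 308 again held the lowest and mouse 319 the highest value of each gene. Without mouse 319 the other 3 AAV8-AGXT mice lay below all AAV8-GFP mice for Csf1r, at a log2 fold change of -0.58, but 873 exonic bases of Csf1r overlap Hmgxb3 on the other strand, and the strand option of the counting is not given in the sources used here.

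Single animals often held the extremes among the 8 mice. Mouse 319 was the highest of 8 for 9 genes, and over all genes tested it was the highest for 11.9%. Mouse 308 was the lowest of 8 for 4 genes, Vsig4, Cd5l, Adgre1 and Csf1r, where over all genes tested it was the lowest for 20.6%. AAV8-GFP mouse 314 was the lowest for another 4, Cd163, Marco, Timd4 and Clec4f, against 12.3% of all genes. Without mouse 319 the log2 fold changes of Vsig4, Cd5l, Folr2, Adgre1 and Csf1r were -0.33, -0.51, -0.11, -0.25 and -0.58, and the median of the 10 was -0.02. Scaling mattered for the small differences as well. With no composition factor the median of all genes shifted by -0.24 on the log2 scale, Vsig4 and Adgre1 changed sign to -0.20 and -0.10, and Mrc1 came to 0.02, whereas Cd163, Marco and Timd4 stayed at 3.62, 3.35 and 2.20.

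**Figure D2:**
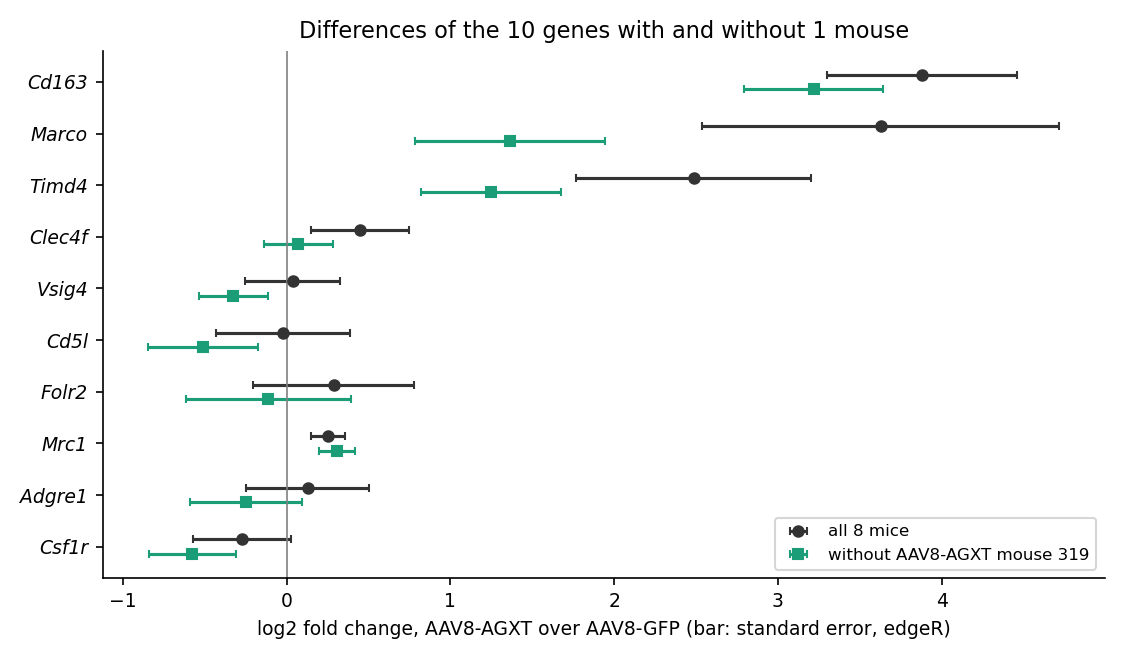
Log2 fold change of the 10 genes, AAV8-AGXT over AAV8-GFP, with all 8 mice (circles) and without AAV8-AGXT mouse 319 (squares), bars giving the standard error from edgeR. Cd163 goes from 3.88 to 3.22 without this mouse, whereas Marco goes from 3.63 to 1.36 and Timd4 from 2.49 to 1.25.

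In bulk liver RNA, fewer cells of a type and less RNA per cell cannot be told apart. Levels can be compared between genes per length, as CPM divided by the exon length in kilobases (RPKM). In AAV8-GFP mice the mean RPKM was 82.0 for Cd5l, 37.6 for Clec4f, 19.03 for Vsig4, 16.8 for Csf1r, 4.27 for Adgre1, 4.21 for Mrc1, 1.93 for Marco, 0.893 for Folr2, 0.405 for Timd4 and 0.201 for Cd163. Cd163 was therefore the scarcest of the 10 per length. In this order the ranges over mice overlapped between Vsig4 and Csf1r, between Adgre1 and Mrc1, between Marco and Folr2, between Folr2 and Timd4 and between Timd4 and Cd163, and they did not overlap between the other neighbours. In AAV8-AGXT mice the mean RPKM of Cd163 was 2.96 ± 2.31 (SD, n = 4), which stood above those of Timd4, 2.30 ± 2.65, and Folr2, 1.08 ± 0.587, with overlapping ranges.

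Cd163 was also expressed relative to 3 genes among the 10, which need not be transcribed in the same cells. As RPKM, Cd163 was 0.339% to 0.822% of Clec4f in AAV8-GFP mice and 2.13% to 7.16% in AAV8-AGXT mice. Relative to Csf1r it was 0.670% to 1.82% and 5.80% to 33.5%, and relative to Adgre1 it was 2.13% to 10.6% and 19.5% to 111.8%. The groups did not overlap for any of these 3 ratios. Marco was 1.14% to 6.48% of Clec4f against 7.78% to 93.4%, and Timd4 was 0.896% to 1.41% against 1.56% to 7.20%, again without overlap. Neither gene overlapped relative to Csf1r, but Timd4 relative to Adgre1 did, at 4.21% to 14.4% and 14.3% to 79.6%. Vsig4 relative to Clec4f was lower, at 45.9% to 64.0% of Clec4f in AAV8-GFP mice and 26.6% to 45.1% in AAV8-AGXT mice, whereas relative to Csf1r it overlapped, at 91.5% to 146.0% and 122.7% to 170.5%, as it did relative to Adgre1. Cd5l, Folr2, Mrc1, Adgre1 and Csf1r overlapped relative to Clec4f. These ratios use values of the comparison by which the genes were chosen and carry no test.

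**Figure D3:**
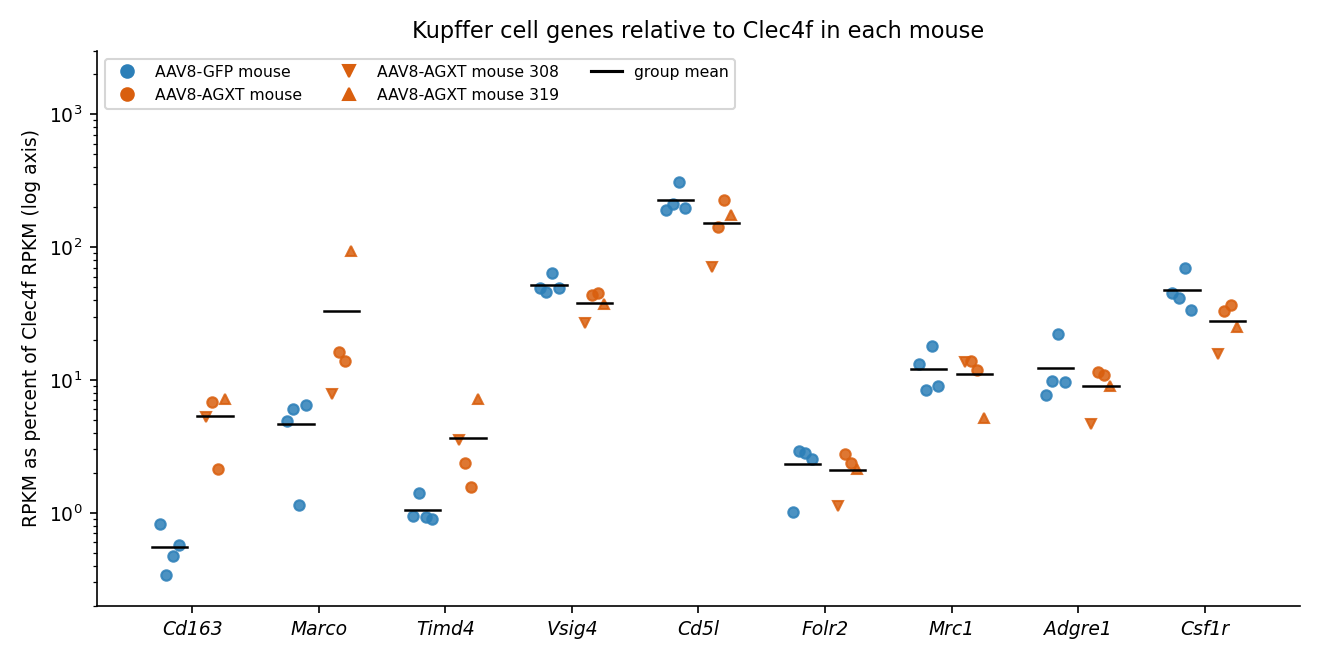
RPKM of 9 genes as a percent of Clec4f RPKM in each mouse, on a log axis, with AAV8-GFP mice in blue, AAV8-AGXT mice in orange and the group mean as a black line. Cd163 lies at 0.339% to 0.822% in AAV8-GFP mice and at 2.13% to 7.16% in AAV8-AGXT mice, and mouse 319 no longer stands above the other AAV8-AGXT mice for Cd5l, Adgre1 and Csf1r.

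Other genes of macrophages and of pathways around Cd163 were taken from 10 lists, in which 99 genes outside the 10 were tested. Of these, 3 were higher and 4 lower in AAV8-AGXT mice at an adjusted p under 0.05, together 7.07%. Over all genes tested the share called was 4.35%, made up of 2.45% higher and 1.9% lower. The groups did not overlap for 9 genes higher and 18 genes lower in AAV8-AGXT mice, where the shares over all genes tested were 8.93% and 7.63%. The median log2 fold change of the 99 was -0.33. Over all 15248 genes tested, 3988 had an unadjusted p under 0.05 in edgeR's test. Of the 15248, the DESeq2 Wald test called 1077 higher and 1054 lower, and limma-voom called 404 higher and 278 lower. The counts for each list below are to be read beside these. None of the 7 called genes was called without AAV8-AGXT mouse 319, without AAV8-GFP mouse 311 or without AAV8-GFP mouse 314. With every mouse left out once, in 8 fits, Fkbp5 was called in 5, Cd9 and Il10rb in 4 each, Alas1 and Cxcl16 in 3 each and Hpgd and Gas6 in 1 each.

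Of 12 further genes of Kupffer cell identity, 1 rose, 0 fell and 11 did not pass the test, with a median log2 fold change of 0.20. The gene that rose was Hpgd, which encodes the enzyme that inactivates prostaglandins, at 50.6 and 80.2 CPM (log2 fold change 0.66, SE 0.15, edgeR adjusted p = 0.0425), a call that was lost with no composition factor (log2 fold change 0.44, edgeR adjusted p = 0.0916, range over 13 alternatives 0.00227 to 0.148). DESeq2 called 2 of the 12 identity genes higher, Hpgd and Fcna, and limma-voom called 1 higher. Of 12 transcription factors of macrophages and Kupffer cells, 0 passed edgeR's test and 5 had an unadjusted p under 0.05, and their median was -0.05. The DESeq2 Wald test called 2 of them higher and 1 lower, and limma-voom called 1 higher. The most abundant in the list were the retinoid receptor Rxra, at 352.3 and 561.4 CPM (log2 fold change 0.67, SE 0.17, edgeR adjusted p = 0.0502), and the inhibitor of DNA binding Id3, at 150.7 and 141.2 CPM. Spi1, which encodes PU.1 and was named after its values were seen, measured 29.3 and 15.2 CPM without overlap between the groups (edgeR adjusted p = 0.117).

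Among the other scavenger receptors, 9 of 10 genes were tested, 0 rose and 1 fell, with a median log2 fold change of 0.14. The gene that fell was Cxcl16, a membrane-bound chemokine that also binds oxidized lipoprotein, by 0.99 on the log2 scale (SE 0.20, edgeR adjusted p = 0.0366), although 552 of its exonic bases overlap Zmynd15. In the list of haemoglobin and haem handling, which holds the ligands and enzymes on either side of Cd163, 1 of 12 genes rose, 0 fell and the median was 0.10. This was Alas1, the rate-limiting enzyme of haem synthesis in the liver, at 540.8 and 1292 CPM (log2 fold change 1.26, SE 0.26, edgeR adjusted p = 0.0366), which missed the threshold with no composition factor (log2 fold change 1.01, edgeR adjusted p = 0.0547, range over 13 alternatives 0.000155 to 0.124) and also without AAV8-GFP mouse 303 or AAV8-AGXT mouse 309. DESeq2 called 2 of the 12 genes higher, Alas1 and Abcg2. Haptoglobin (Hp), which binds free haemoglobin in plasma, measured 6444 and 6172 CPM. Haem oxygenase (Hmox1) measured 43.6 and 28.0 CPM, and neither of these genes passed edgeR's test.

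Of the inducers of Cd163 and the machinery that sheds it from the cell surface, 11 of 13 genes were tested, 1 rose and 1 fell. Fkbp5, a target gene of the glucocorticoid receptor, rose from 26.7 to 68.9 CPM (log2 fold change 1.37, SE 0.23, edgeR adjusted p = 0.0283). Il10rb, a subunit of the interleukin-10 receptor, fell by 0.92 on the log2 scale (SE 0.19, edgeR adjusted p = 0.0363). Other glucocorticoid targets of the list did not pass, with log2 fold changes of -0.41 for Tsc22d3 and 0.28 for Per1, and Nr3c1, the receptor itself, was at 0.16. Il10 and Il6 were too scarce to be tested. Of the shedding genes, Rhbdf2 measured 45.5 and 34.8 CPM without overlap between the groups (log2 fold change -0.39, SE 0.14, edgeR adjusted p = 0.117). With no composition factor Rhbdf2 was called lower. Adam17 had a log2 fold change of -0.29 (SE 0.14, edgeR adjusted p = 0.206). In the CSF1 receptor axis 7 of 8 genes were tested, 0 passed edgeR's test and 3 had an unadjusted p under 0.05, with a median of -0.38, while DESeq2 called 2 lower and limma-voom 0. Csf2ra, a subunit of the GM-CSF receptor, had a log2 fold change of -1.08 (SE 0.27, edgeR adjusted p = 0.0548).

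The lists of general and recruited macrophage genes had medians below 0. Of 12 pan-macrophage genes 11 had a log2 fold change below 0 and 6 had groups that did not overlap, and the median was -0.87. By edgeR's test 0 passed and 8 had an unadjusted p under 0.05, as had 3988 of all 15248 genes tested. The DESeq2 Wald test, which called 1054 of all genes tested lower, called 5 of the 12 lower, Cd14, Cd68, Cd74, Fcer1g and Itgam. In the fits with limma-voom, no composition factor and no low-count filter 1 was called lower each time, Cd14. Their summed level was 1013 to 1661 CPM in AAV8-GFP mice and 282.7 to 937.2 CPM in AAV8-AGXT mice, and mouse 308 was the lowest of 8 for 11 of the 12. The most abundant were Cd74, the invariant chain of antigen presentation, at 538.1 and 256.5 CPM without overlap (log2 fold change -1.07, SE 0.35, edgeR adjusted p = 0.0933), and Lyz2, lysozyme, at 296.6 and 162.4 CPM (edgeR adjusted p = 0.204). Of 8 genes of lipid-associated macrophages 1 fell, 0 rose and 7 did not pass edgeR's test, with a median of -1.22. The gene that fell was Cd9, a tetraspanin, by 1.03 on the log2 scale (SE 0.18, edgeR adjusted p = 0.0298). Of the 8 genes 6 had an unadjusted p under 0.05 in edgeR's test. DESeq2 called 5 of the 8 lower, Cd9, Lgals3, Lpl, Spp1 and Trem2, and limma-voom called 1 lower. Of 10 genes of recruited monocytes 0 passed edgeR's test and 4 had an unadjusted p under 0.05, with a median of -0.75, while DESeq2 called 2 lower and limma-voom 0. Among these 4, F10 was higher in AAV8-AGXT mice (log2 fold change 0.40, SE 0.16) and the others were lower. Of 10 genes for the clearance of dying cells 1 fell, which was Gas6, the bridge between dying cells and the receptors Mertk and Axl, by 0.94 on the log2 scale (SE 0.23, edgeR adjusted p = 0.0495), a call that was lost with DESeq2's size factors (edgeR adjusted p = 0.0519, range over 13 alternatives 0.00246 to 0.151). Of these 10 clearance genes 4 had an unadjusted p under 0.05 in edgeR's test, and DESeq2 called 2 lower, Gas6 and Mfge8, and limma-voom 1. Among those 4, Abca1 was higher in AAV8-AGXT mice (log2 fold change 0.54, SE 0.20) and the others were lower. Exons of Alas1, Il10rb, Cd9 and Gas6 overlap other genes, so their counts are uncertain.

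**Figure D4:**
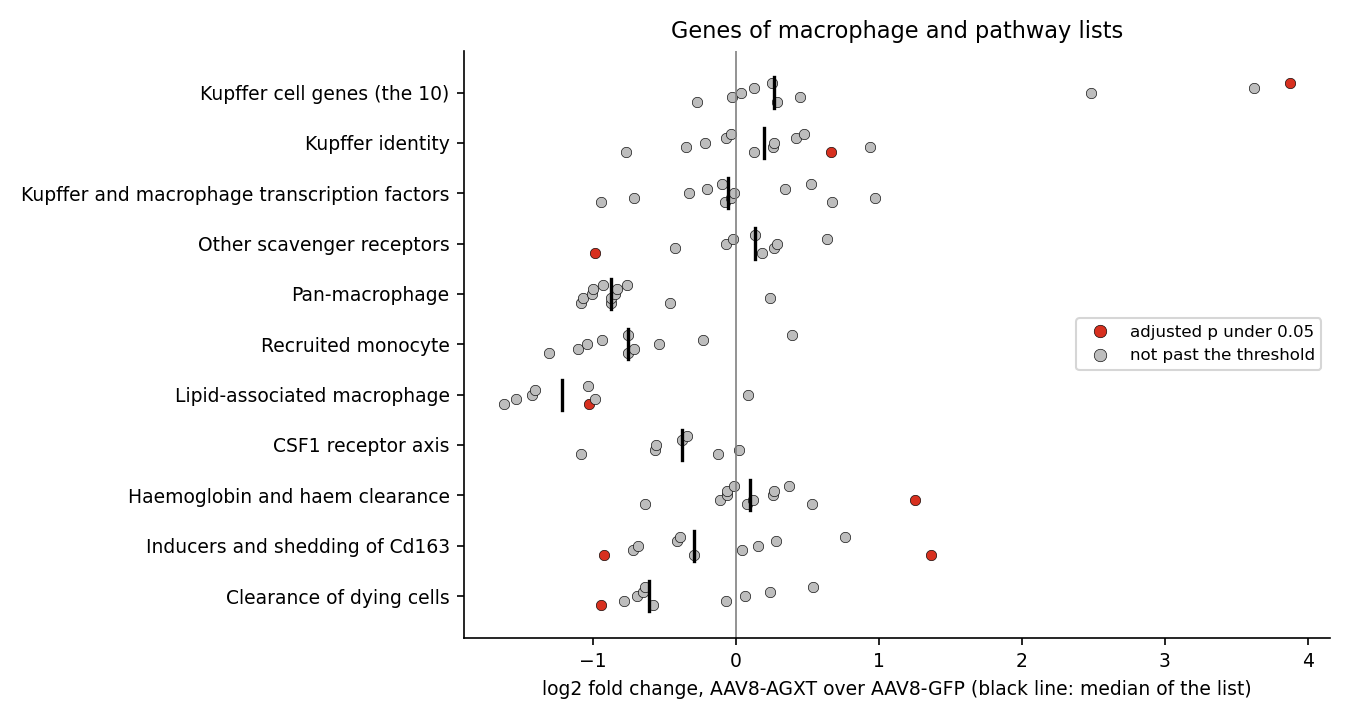
Log2 fold change, AAV8-AGXT over AAV8-GFP, of each tested gene in the 10 Kupffer cell genes and in 10 lists of macrophage and pathway genes, with the median of each list as a black line and genes past an adjusted p of 0.05 in red. The median is 0.27 for the 10 genes, -0.87 for pan-macrophage genes and -1.22 for genes of lipid-associated macrophages.

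Markers of other liver cells were summed to see what else differed between the livers that were compared. The sum of 5 hepatocyte genes was 42590 to 51565 CPM in AAV8-GFP mice and 52301 to 73242 CPM in AAV8-AGXT mice, without overlap, with 1 gene, Cps1 of the urea cycle, called higher. The sums of 6 sinusoidal endothelial genes, 147.5 to 230.0 CPM and 137.3 to 279.4 CPM, and of 5 erythroid genes, 86.4 to 144.8 CPM and 114.2 to 302.3 CPM, overlapped, and mouse 308 was the highest for each. The sums of T and NK cell genes, 8.28 to 14.8 CPM and 2.42 to 8.94 CPM, of B and plasma cell genes, 5.12 to 10.3 CPM and 4.21 to 9.39 CPM, of neutrophil genes, 20.3 to 32.3 CPM and 6.83 to 21.8 CPM, and of dendritic cell genes, 12.5 to 16.3 CPM and 9.82 to 14.01 CPM, also overlapped. Cholangiocyte genes summed to 224.5 to 673.1 CPM and 74.1 to 272.5 CPM, stellate cell genes to 255.9 to 360.6 CPM and 178.7 to 384.5 CPM. Genes of peritoneal macrophages and mesothelium summed to 42.9 to 82.7 CPM and 33.1 to 78.0 CPM with 3 of 5 too scarce to be tested, and those of adipocytes to 264.0 to 358.6 CPM and 297.9 to 396.1 CPM, of which Cidec, also made by steatotic hepatocytes, was the 1 gene tested. The part of these cells in the levels of Cd163 and the other 9 genes was not tested.

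The genes whose pattern over the 8 mice was most like that of Cd163 were ranked by the mean absolute difference of log2 CPM after each gene was centred on its own mean, where 0 is an identical pattern. The nearest was Cxcl13, a chemokine that attracts B cells, at 0.47, where the median over 15247 genes was 1.75. Cxcl13 measured 0.195, 0.153, 0.0923 and 0.132 CPM in AAV8-GFP mice and 0.897, 1.80, 0.668 and 10.3 CPM in AAV8-AGXT mice, in the order of animals used above. As for Cd163, mouse 319 was the highest and mouse 316 the lowest of the AAV8-AGXT group. The next genes outside the 10 included Serpina1e, Dct, Moxd1, Sptlc3, Cyp2c54, Cyp2c37, Ces4a and Cyp2c40, at 0.70 to 0.81. Serpina1e and the Cyp2c genes belong to families of near-identical copies, so their counts are uncertain. Cxcl13, Moxd1 (0 to 0.117 CPM), Dct (0.184 to 0.750 CPM) and Sptlc3 lay near the floor in AAV8-GFP mice. Their likeness to Cd163 within that group is therefore uncertain. Of the other Kupffer cell genes Timd4 stood at place 9 with 0.80, Marco at place 49 with 1.05 and Clec4f at place 1732 with 1.55, and Csf1r at place 12250 was the farthest. This ranking describes 8 livers and carries no test.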

How the data were processed

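The authors sequenced liver mRNA of 8 mice as stranded paired-end libraries. Per the labels and the paper's methods, reads were trimmed by Trimmomatic 0.35 and aligned to GRCm38 by HISAT2, and HTSeq gave the number of read pairs on each gene. The deposited tables hold these raw, unnormalized counts for 52636 Ensembl genes. Of these, 52489 identifiers were matched to GENCODE M21. The strand option of the counting is not given in the sources used here. Pairs aligned at several places went uncounted, which lowers genes with near-identical copies. Read pairs tallied on no gene were left out of the library sizes, and between 56.3% and 69.1% of the tallied pairs were on genes.

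Counts were tested in R 4.3.3 with edgeR 4.0.16 (filterByExpr, TMM, quasi-likelihood test, treatment as the only term, prior count 0.125), with Benjamini-Hochberg adjustment over 15248 genes and a threshold of 0.05. The biological coefficient of variation between mice was 23.3%, so for all but the scarcest genes the spread between mice, more than counting, set the precision. RPKM used merged exon lengths of GENCODE M21. Log2 CPM for likeness used a prior count of 2. Alternatives were limma-voom (limma 3.58.1), the Wald test of DESeq2 1.42.0, DESeq2's size factors, no composition factor, no low-count filter and each mouse left out. The script was tested on simulated data.

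The 10 genes and all lists were chosen with earlier results of these data known. Named were the 10 genes in every mouse, of each list the genes passing the test (up to 4 by smallest p) or otherwise up to 2 with the highest mean CPM, and the 10 genes most like Cd163, and some genes that this rule or the lists hold are not reported here. Other genes of the lists are named with their values as context and were chosen after those were seen. Promoter windows were taken from RefSeq tables.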

Additional observations from a re-analysis of the deposited data

Results flagged for a closer look

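In groups of 4 mice, a mouse was singled out when its gap to the nearest other mouse, divided by the range of the group, exceeded Dixon's critical value for 4 samples. This occurred in 6 of 70 pairs of a gene and a group. The critical value is set for about 1 in 20 in independent, normally distributed samples. These genes were picked from the same data and share mice, so nothing is read from the count. In AAV8-AGXT mice, animal 319 stood far above the others for Marco, at 156.2 CPM against 5.94 to 12.4 CPM. The same animal stood apart for Timd4, at 13.6 CPM against 1.34 to 3.04 CPM, and for Clec4f, at 214.8 CPM against 97.1 to 98.0 CPM. It was also apart for Cxcl13, the gene most like Cd163, at 10.3 CPM against 0.668 to 1.80 CPM. In AAV8-GFP mice, animal 303 was apart for Sptlc3, at 1.52 CPM against 0.0918 to 0.176 CPM, and for Grb2, an adaptor of the CSF1 receptor, at 53.1 CPM against 64.0 to 65.8 CPM. Cd163 itself was not singled out in either group.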

How the results depend on the processing

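Cd163 was called in all 5 other fits of the 8 mice and in 6 of the 8 fits without 1 mouse, and its groups stayed apart in all 12 settings where this was counted. All calls among the 10 genes re-use the comparison by which these genes were chosen, so they are a description and no support. With the DESeq2 Wald test 2131 genes were called, 1077 higher and 1054 lower, among them 2 of the 10 genes (Cd163 and Timd4, with no adjusted p for Marco) and 26 list genes. Total counts with no composition factor gave 1001 calls, 144 higher and 857 lower, or 14.4% higher against 56.3% in the main test (374 and 290), and left 1 of the 10 genes without overlap. With no low-count filter 3 of the 10 genes (Cd163, Marco and Timd4) and 16 list genes were called, and 1 of the 10 had no overlap. With each mouse left out in turn, total calls ranged from 2 to 643, calls higher from 2 to 379, calls lower from 0 to 325, calls among the 10 genes from 0 to 1 and among list genes from 0 to 10, and 2 to 4 of the 10 genes had no overlap. Total calls were 2 without AAV8-GFP mouse 311 (2663 genes at an unadjusted p under 0.05), 15 without AAV8-GFP mouse 314 and 14 without AAV8-AGXT mouse 319, against 3988 at an unadjusted p under 0.05 in all mice, and 193, 177 and 411 without mice 303, 308 and 316. The log2 fold change of Id3, -0.09 in the main test, ranged from -0.206 to 0.0205 with each mouse left out, the last without AAV8-GFP replicate 303. The causes were not tested. No paired analysis was possible because the groups share no animal number. The scarcity of Timd4, Folr2 and Cd163, with 10 to 48 counts in some mice, limits their precision.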
